A study of Mus musculus with 6 samples.

Results

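The genes described here are those that copy DNA and divide the cell, 39 members chosen by gene symbol from a list of replication and mitosis genes. A member entered with the probe set that carried its symbol alone and, where there was more than 1 such set, with the set of the highest mean over all 6 arrays. Of the 39 members, 38 were found among the 19938 genes named in this way, and the remaining one, the mitotic cyclin gene Ccnb1, had no probe set under its name and is not analysed further. The 38 fell into 14 replication genes, 6 genes of G1/S kinases and cell cycle transcription factors, and 18 mitosis genes.

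RNA came from marrow flushed out of the femurs and tibiae of mice aged 10 weeks, all labelled male, with no sorting and no further treatment, and was hybridised to Affymetrix gene arrays. The 3 wild type arrays are labelled BKS.Cg-Dock7m +/+ Leprdb/JNju, and the 3 diabetic arrays carry the same strain name with -/- in place of +/+. The db allele of the leptin receptor gene Lepr is a constitutive loss of the long receptor form that makes mice obese and diabetic, and Dock7m is the misty coat colour allele kept in this stock. The labels do not say if a wild type animal carried a copy of either allele, nor if the RNA of an array was pooled. The p-values set a difference against the spread between arrays of a group, which limma drew for each gene toward the level of all genes. If RNA was pooled, the spread between arrays is not that between single animals. Markers of erythroid cells, promyelocytes and late neutrophils were bright on every array, with list means from 11.54 to 12.68 log2 units.

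Before a cell divides, the MCM helicase is loaded on replication origins during G1, cyclin E with Cdk2 starts S phase, and cyclin A and cyclin B with Cdk1 then drive mitosis. Transcription of these genes rises and falls with the cycle: E2F factors act on many G1/S genes, and the DREAM, B-Myb and Foxm1 complexes act on many G2/M genes through an element called CHR, often with CCAAT boxes bound by NF-Y. Marrow holds several kinds of rapidly dividing cells, among them erythroblasts, promyelocytes and large pre-B cells, while ripe neutrophils and most resting lymphocytes do not divide. In whole marrow, fewer cells of a type and less RNA per cell cannot be told apart.

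Promoter sequences were looked at because the members moved together from array to array, as described further on. RefSeq windows of 300 bases on the GRCm38.p6 build, 250 before the start of transcription and 50 after it, were at hand for 30 of the 39 members, Ccnb1 included, and these are reference sequences, not those of the BKS mice. Mcm4, Gins1, Gins2, Ccne2, Foxm1, Ccna2, Aurkb, Kif20a and Tpx2 were not matched. The 200 bases before the start are shown for 8 members, 3 that carry the E2F letters as replication genes do and 5 mitosis genes with CHR letters, read 5′ to 3′ along each gene, with every match in capitals.
Mcm5 (chr8:75109309-75109508, plus strand): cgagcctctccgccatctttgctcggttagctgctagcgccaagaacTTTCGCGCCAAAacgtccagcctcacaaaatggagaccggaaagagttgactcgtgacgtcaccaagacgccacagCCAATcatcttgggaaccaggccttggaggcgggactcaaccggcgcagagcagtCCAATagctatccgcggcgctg
Mcm6 (chr1:128359706-128359905, minus strand): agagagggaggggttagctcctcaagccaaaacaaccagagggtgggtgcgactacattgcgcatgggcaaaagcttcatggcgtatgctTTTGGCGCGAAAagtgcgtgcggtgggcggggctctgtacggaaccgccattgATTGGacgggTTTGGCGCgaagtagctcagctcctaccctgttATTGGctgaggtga
Cdc6 (chr11:98907951-98908150, plus strand): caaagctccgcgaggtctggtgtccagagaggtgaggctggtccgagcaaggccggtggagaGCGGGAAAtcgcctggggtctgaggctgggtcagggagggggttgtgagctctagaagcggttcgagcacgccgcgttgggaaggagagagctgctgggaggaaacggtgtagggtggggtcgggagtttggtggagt
Cdk1 (chr10:69352913-69353112, minus strand): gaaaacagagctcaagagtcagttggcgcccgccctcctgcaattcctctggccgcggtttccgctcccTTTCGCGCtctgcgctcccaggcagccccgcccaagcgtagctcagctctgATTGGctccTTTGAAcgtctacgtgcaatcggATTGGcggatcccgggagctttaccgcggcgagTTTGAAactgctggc
Cdc20 (chr4:118437344-118437543, minus strand): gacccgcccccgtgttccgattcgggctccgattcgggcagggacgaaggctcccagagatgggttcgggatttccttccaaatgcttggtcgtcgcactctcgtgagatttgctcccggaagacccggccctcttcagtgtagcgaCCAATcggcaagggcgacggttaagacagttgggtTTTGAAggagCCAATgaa
Top2a (chr11:99024190-99024389, minus strand): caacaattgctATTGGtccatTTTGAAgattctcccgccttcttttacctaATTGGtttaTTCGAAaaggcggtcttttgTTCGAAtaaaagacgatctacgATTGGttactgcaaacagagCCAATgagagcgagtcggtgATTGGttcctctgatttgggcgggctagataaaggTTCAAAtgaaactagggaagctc
Mki67 (chr7:135716380-135716579, minus strand): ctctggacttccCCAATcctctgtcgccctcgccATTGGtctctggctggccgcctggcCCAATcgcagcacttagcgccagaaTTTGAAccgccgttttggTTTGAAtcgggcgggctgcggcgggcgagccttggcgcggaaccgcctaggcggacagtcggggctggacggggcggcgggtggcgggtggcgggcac
Kif11 (chr19:37376182-37376381, plus strand): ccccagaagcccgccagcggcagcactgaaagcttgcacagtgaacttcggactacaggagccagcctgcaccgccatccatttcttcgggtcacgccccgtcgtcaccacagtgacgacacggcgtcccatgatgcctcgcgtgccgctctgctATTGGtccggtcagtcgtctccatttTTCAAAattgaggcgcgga

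An E2F site was counted where TTTCCCGC, TTTCGCGC, TTTGCCGC or TTTGGCGC was present on either strand. These letters were in 2.26% of all 32851 windows of the table. They were in 6 of the 11 replication members with a window (Cdc6, Cdt1, Mcm3, Mcm5, Mcm6 and Mcm7), in Cdk2 among the 4 of the G1/S group and in Cdk1 among 15 mitosis members. In Mcm5 and Mcm6 a pair of matches on opposite strands overlapped, which gives the long runs of capitals above. The CHR letters TTTGAA or TTCGAA, on either strand, showed the other arrangement, with 12 of 15 mitosis members, 2 of 11 replication members (Mcm2 and Mcm7) and E2f8, against 19.2% of all windows. All 15 of these members also held the CCAAT letters on either strand, where 7.52% of all windows held both. Mcm7 has more than 1 window and was counted where any of them matched. A match describes the letters and was not tested as a bound site.

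Between diabetic and wild type marrow, 0 of 38 members passed the threshold of 0.05 for limma's adjusted p (Benjamini-Hochberg over the 11940 genes tested). The share of all genes that passed was 0.410%, with 0.0838% higher and 0.327% lower. The adjusted p values of the members in limma ran from 0.806 for Mcm5 to 0.999 for Cdc6, and 0 of 38 had an unadjusted p under 0.05, where 3.99% of all genes did in the upward and 3.17% in the downward direction. The largest difference upward was that of Gins1, 1.14-fold, and the largest downward that of Tyms, 1.12-fold. The 95% interval of limma lay within 1.5-fold in either direction for all 38 members, as it did for 96.2% of all genes. These intervals use a spread that limma draws toward the level of all genes. For 35 of 38 members the spread within the groups was above the median of all genes. Intervals from the spread of each member alone can be wider and were not computed. Differences were below 0 for 29 of 38 members, where 47.6% of all genes were, but the members move together, so this count does not stand for 38 separate observations. Their median difference was -0.04 on the log2 scale, where that of all genes was 0.00468.

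**Figure D1:**
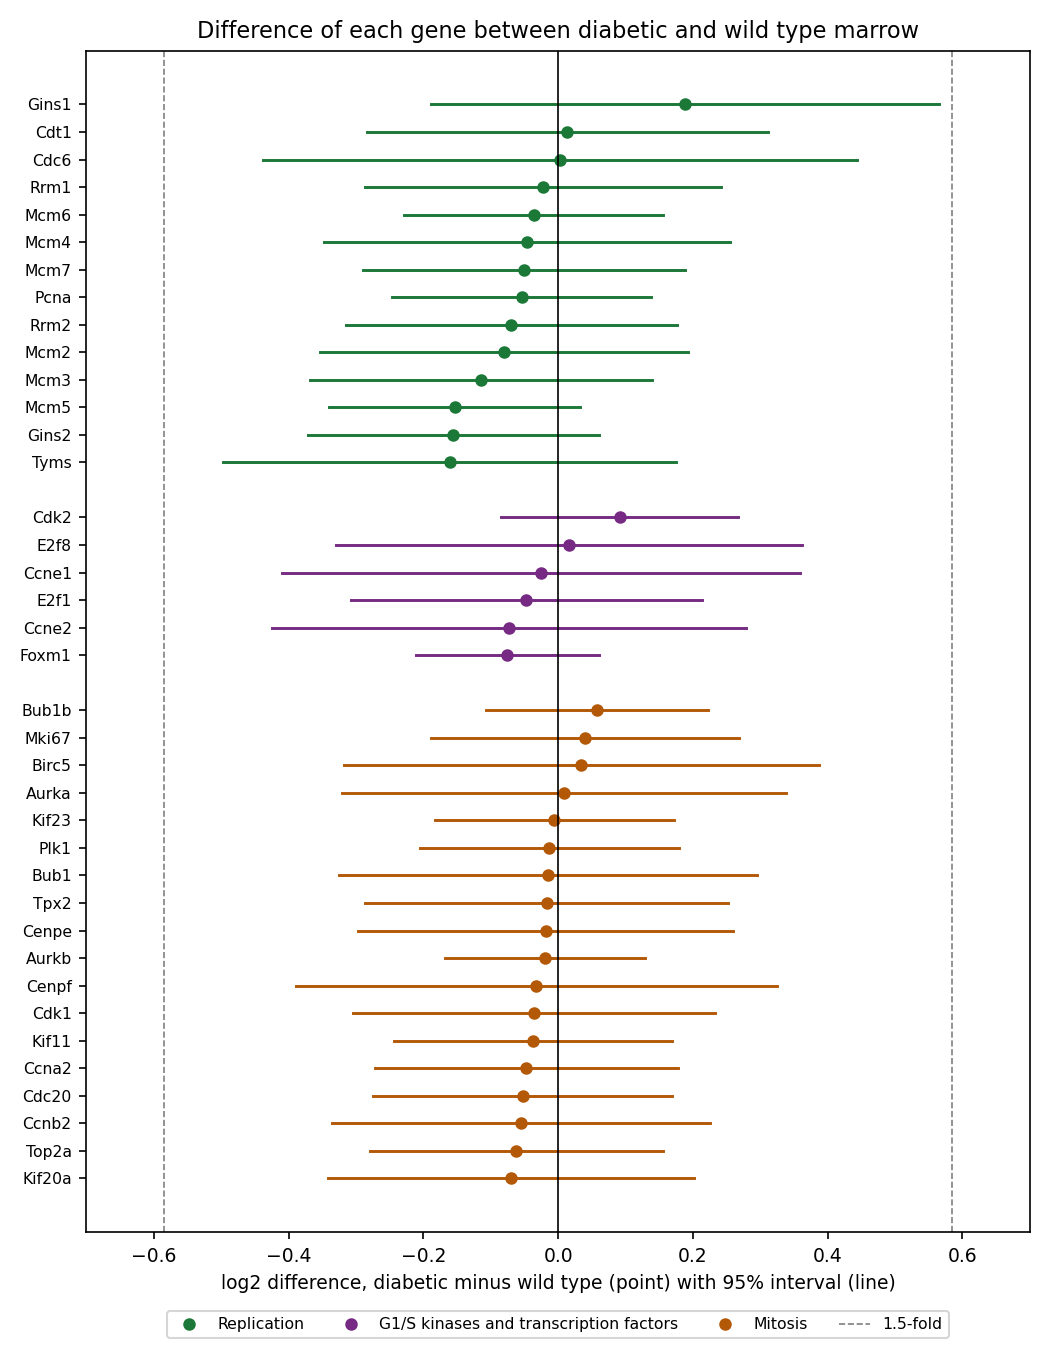
Log2 difference between diabetic and wild type marrow for the 38 members, grouped by role, with the 95% interval of limma as a line and 1.5-fold as dashed lines. Every interval crosses 0 and lies inside the dashed lines, and the points run from -0.16 for Tyms to 0.19 for Gins1.

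Among the replication genes, the 6 subunits of the MCM2-7 helicase, which unwinds DNA at the fork, all had a difference below 0, and none passed. Mcm5 (probe set 10572906, gene on chromosome 8) had wild type log2 signals of 11.40, 11.40 and 11.65 and diabetic ones of 11.30, 11.33 and 11.36. It was the only member whose groups did not overlap, with every diabetic value under every wild type value, a separation that 5.38% of all genes showed in that direction and 6.99% in the other, where no member was separate. Its difference was -0.15 ± 0.08 (SE, n = 3 per group, limma adjusted p = 0.806).

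Mcm2 had 11.15, 11.23 and 11.60 in wild type and 11.22, 11.34 and 11.18 in diabetic marrow. Mcm3 had 10.34, 10.32 and 10.70 against 10.33, 10.44 and 10.25. In both, wild type replicate 3 stood above the other 5 arrays, which overlapped across the groups. The differences were -0.08 ± 0.12 for Mcm2 and -0.11 ± 0.11 for Mcm3 (SE), and Mcm4, Mcm6 and Mcm7 had -0.05, -0.04 and -0.05. Without wild type replicate 3 only Mcm5 of the 6 was below 0, at -0.07, and Mcm2 was at 0.06.

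The GINS complex joins the MCM ring to Cdc45 to make the active helicase. Gins1 had 8.23, 8.47 and 8.78 in wild type and 8.69, 8.92 and 8.43 in diabetic marrow, a difference of 0.19 ± 0.16 (SE) with an interval from -0.19 to 0.57. Gins2 had 9.41, 9.44 and 9.74 against 9.33, 9.43 and 9.36, a difference of -0.16 ± 0.09 with an interval from -0.37 to 0.06. Both sets overlapped between the groups, and neither gene passed (limma adjusted p = 0.933 for Gins1 and 0.869 for Gins2). The other subunits, Gins3 and Gins4 of the wider replication list, were at -0.01 ± 0.11 and -0.00947 with a standard error of 0.10, and differences between subunits were not tested.

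Cdc6 and Cdt1, which load the helicase, had differences of 0.00306 and 0.01 with standard errors of 0.19 and 0.13. Cdc6 was the member with the largest spread, with 8.77, 9.10 and 9.55 in wild type, an SD of 0.39, against 9.07, 9.38 and 8.98, an SD of 0.21. Pcna, the sliding clamp that holds the polymerase on DNA, had 12.76, 12.85 and 13.02 in wild type and 12.82, 12.90 and 12.75 in diabetic marrow. Its difference was -0.05 ± 0.08 (SE), and a second probe set of nearly the same mean gave -0.06 ± 0.08.

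The enzymes that make deoxynucleotides were the last replication genes. Tyms, thymidylate synthase, had 10.11, 10.26 and 10.70 in wild type and 10.12, 10.33 and 10.14 in diabetic marrow. Its difference of -0.16 ± 0.15 (SE) rested on wild type replicate 3, and without that array it was 0.01. Rrm1 and Rrm2, the subunits of ribonucleotide reductase, were at -0.02 ± 0.11 and -0.07 ± 0.11.

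The G1/S group held the S phase kinase, its cyclins and the transcription factors. Cdk2 had 10.55, 10.61 and 10.80 in wild type and 10.75, 10.73 and 10.76 in diabetic marrow, so that the diabetic values, with an SD of 0.01, all lay inside the wild type range. Its difference was 0.09 ± 0.08 (SE, n = 3 per group, limma adjusted p = 0.930). The cyclin E genes Ccne1 and Ccne2 were at -0.03 ± 0.17 and -0.07 ± 0.15. E2f1, an activator of S phase genes, had 10.03, 10.23 and 10.47 against 10.14, 10.30 and 10.14, and the repressor E2f8 was at 0.02 ± 0.15. Foxm1, an activator of G2/M genes, had the smallest spread of all 38 members. Its values were 10.70, 10.63 and 10.75 in wild type and 10.65, 10.60 and 10.60 in diabetic marrow, a difference of -0.08 ± 0.06 with an interval from -0.21 to 0.06.

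The differences of the mitosis genes ran from -0.07 for Kif20a, a motor of cytokinesis, to 0.06 for Bub1b, a kinase-like protein of the spindle checkpoint. Mki67, which encodes the proliferation marker Ki-67, had 12.98, 13.04 and 13.19 in wild type and 13.08, 13.30 and 12.96 in diabetic marrow. The highest and the lowest of its 6 values were both diabetic, and its difference was 0.04 ± 0.10 (SE) with an interval from -0.19 to 0.27. Top2a, the topoisomerase that untangles sister chromatids, had 11.60, 11.65 and 11.73 against 11.62, 11.76 and 11.41. Its difference was -0.06 ± 0.09, while a second, far dimmer probe set gave 0.17 ± 0.11.

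Cdk1, the mitotic kinase, had 11.52, 11.67 and 11.82 in wild type and 11.69, 11.79 and 11.41 in diabetic marrow, a difference of -0.04 ± 0.12 (SE). Its cyclin partners Ccna2 and Ccnb2 were at -0.05 ± 0.10 and -0.06 ± 0.12. The groups overlapped for all of these genes. Bub1b had 10.31, 10.31 and 10.39 against 10.42, 10.49 and 10.28, and Kif20a had 10.47, 10.55 and 10.87 against 10.60, 10.67 and 10.40. Of the mitotic kinases, Plk1 was at -0.01 ± 0.08, Aurka at 0.00941 with a standard error of 0.14 and Aurkb at -0.02 ± 0.06. Bub1 of the checkpoint, Cdc20, which activates the anaphase-promoting complex, and Birc5, the survivin subunit of the chromosomal passenger complex, were at -0.02 ± 0.13, -0.05 ± 0.10 and 0.03 ± 0.15. The kinetochore genes Cenpe and Cenpf were at -0.02 ± 0.12 and -0.03 ± 0.15. The spindle genes Kif11, Kif23 and Tpx2 were at -0.04 ± 0.09, -0.00547 and -0.02 ± 0.12.

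The members differed from array to array more than between the groups, and they did so together. Their mean log2 signal was 10.81, 10.92 and 11.18 in wild type and 10.92, 11.06 and 10.83 in diabetic marrow. The group means were 10.97 ± 0.19 and 10.94 ± 0.12 (SD, n = 3 each), a shift of -0.03 ± 0.13 (SE), while the range within wild type alone was 0.37. Wild type replicate 3 held the highest value of 32 of 38 members, where it held the highest of 25.2% of all genes, and all 38 were above their own mean there. Diabetic replicate 2 held the other 6 maxima and had 35 members above their mean. Wild type replicate 1 and diabetic replicate 3 each had 1 member above its mean, and they held 16 and 18 of the 38 minima. The mean over all genes tested differed by only 0.03 between the arrays.

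**Figure D2:**
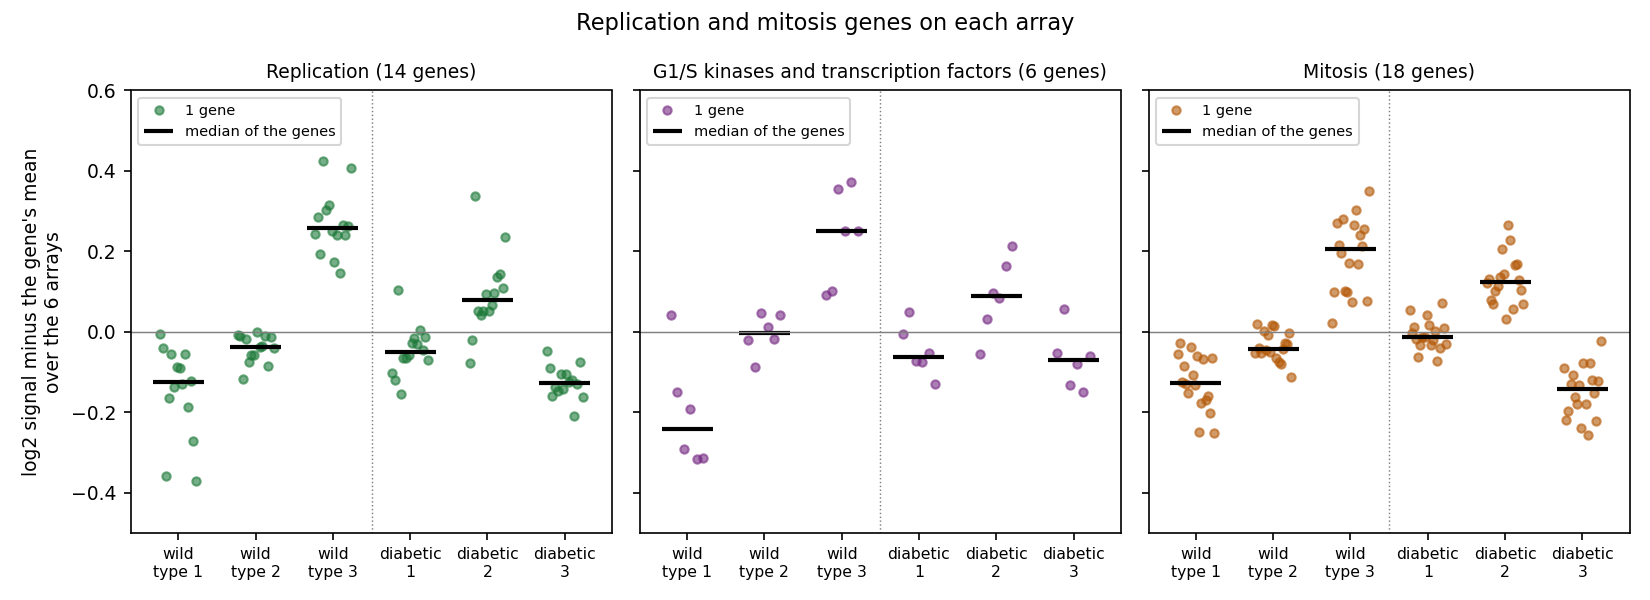
Log2 signal of each member minus its own mean over the 6 arrays, with 1 point per gene, a bar for the median of the genes and the 3 roles in separate panels. The median is highest on wild type replicate 3 in all 3 panels, at 0.26, 0.25 and 0.21, and second highest on diabetic replicate 2.

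The spread of the members within the groups was wide for genes of this table. Their median residual SD was 0.17 on the log2 scale against 0.09 for all genes tested, and 35 of 38 members were above the latter. Only 13.2% of all genes had a residual SD above the members' median. The shift of the members was 0.07 without wild type replicate 3 and -0.11 without wild type replicate 1, and without wild type replicate 3 only Foxm1, Gins2, Mcm5 and Top2a of 38 were below 0. Then 3 members had an unadjusted p under 0.05, where 10.4% of all genes did: Cdk2 at 0.17 ± 0.06, Aurka at 0.19 ± 0.07 and Gins1 at 0.33 ± 0.14 (SE), with the smallest limma adjusted p at 0.405.

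Markers of the dividing and the ripe cell types of marrow were set beside the members, as mean log2 signal per array. The erythroid list had 14 of its 20 genes tested, and the other 6, the globin genes among them, had no probe set under their name alone. Its mean was 11.67, 11.83 and 12.31 in wild type and 11.81, 12.19 and 11.90 in diabetic marrow. Like that of the members, it was highest on wild type replicate 3 and diabetic replicate 2 and lowest on wild type replicate 1. The order differed on diabetic replicate 3, where the erythroid mean of 11.90 was above wild type replicate 2 and diabetic replicate 1. The mean of the members there, 10.83, was below both. The megakaryocyte list, with 7 of 9 genes tested, had 9.81, 10.12 and 10.60 against 10.19, 10.24 and 9.95 and shared the highest and the lowest array. The B cell precursor list, with 15 of 18 genes tested, ran the other way within wild type, at 10.96, 10.72 and 9.93. In diabetic marrow it had 10.27, 10.39 and 10.02, all above wild type replicate 3. The list shifted by -0.31 ± 0.33 (SE). All 15 genes were below 0 in the comparison, where 47.6% of all genes were. Their mean ranged by 1.03 within wild type alone, so this count does not stand for 15 separate observations. Rag1 of antigen receptor recombination was at -0.60 ± 0.21 (SE, limma adjusted p = 0.595). Promyelocyte genes, of dividing neutrophil precursors, with 11 of 12 tested, ranged from 11.67 to 11.79 in wild type and from 11.54 to 11.87 in diabetic marrow, with the lowest value on diabetic replicate 2. Late neutrophil genes, with 15 of 15 tested, ranged from 12.44 to 12.55 and from 12.46 to 12.68. Stem and progenitor genes, with 9 of 12 tested, ranged from 9.36 to 9.54 and from 9.51 to 9.55. Monocyte and macrophage, plasma cell, and T and NK cell lists had 13, 8 and 9 genes tested. They shifted by -0.00912, -0.40 and -0.09 between the groups, with standard errors of 0.06, 0.08 and 0.16. The plasma cell means ranged from 9.76 to 10.03 in wild type and from 9.47 to 9.51 in diabetic marrow, without overlap. The monocyte and macrophage list averages genes that went both ways. Its groups did not overlap for 8 of 13 genes, 6 lower and 2 higher in diabetic marrow. Of all genes, 12.4% did not overlap, 5.38% lower and 6.99% higher. Named after their values were seen, C1qb of resident macrophages was at -0.62 ± 0.12 and Vcan at 1.44 ± 0.22 (SE), with limma adjusted p values of 0.132 and 0.0506. The part of these cell types in the values of the members was not tested.

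**Figure D3:**
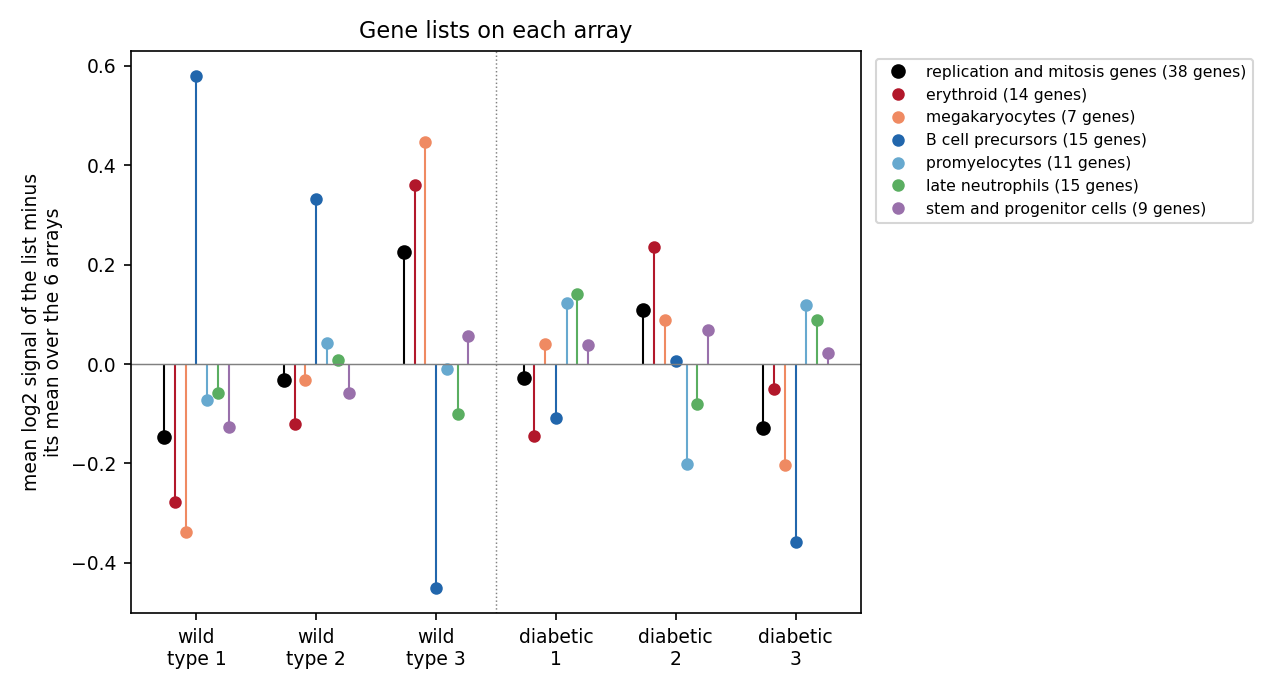
Mean log2 signal of the replication and mitosis genes and of 6 marker lists on each array, minus the mean of that list over the 6 arrays, with the number of genes in the legend. The members, the erythroid and the megakaryocyte lists are all highest on wild type replicate 3 and lowest on wild type replicate 1, where the B cell precursor list is lowest and highest.

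A fit with the array mean of a marker list as a covariate, chosen after seeing the data, measured how much of the spread went along with it. With the erythroid mean the median residual SD of the members was 0.08, close to the 0.07 of all genes, and it was smaller for 37 of 38 members. All 38 had a positive slope on the erythroid mean, with a median of 0.55. The megakaryocyte mean gave 0.07 with 38 positive slopes, and the B cell precursor mean gave 0.15 with 0 positive slopes. The members move together, so the counts of 37 and 38 do not stand for separate observations. With lists chosen after seeing the data, the smaller SD is a description and not a test of a link. The lists share their arrays and only 3 residual degrees of freedom remained. These fits therefore do not separate the cell types from each other or from anything else that differed between the arrays.

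**Figure D4:**
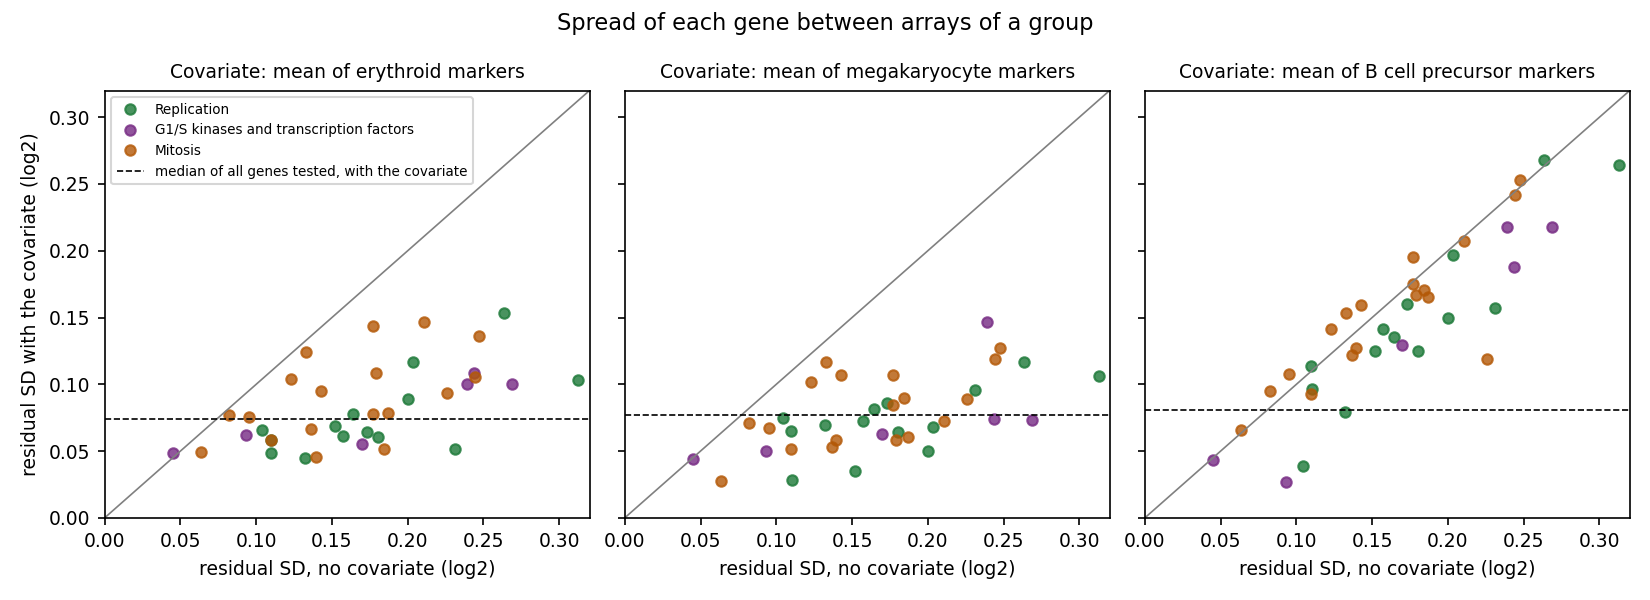
Residual SD of each member with a marker list's array mean as a covariate against that without, on the log2 scale, with the line of equality and the median of all genes tested under that covariate as a dashed line. With erythroid or megakaryocyte means most points lie far under the line of equality, with medians of 0.08 and 0.07, and with B cell precursor means 28 of 38 lie under it, with a median of 0.15.

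With the erythroid mean in the model 0 of 38 members passed the adjusted threshold in limma, and the median difference was -0.05, where it was -0.11 with the B cell precursor mean and -0.01 with the megakaryocyte mean. Tyms at -0.18 ± 0.06, Gins2 at -0.17 ± 0.06 and Mcm5 at -0.16 ± 0.06 (SE) had an unadjusted p under 0.05, a count of 3 of 38 where 12.0% of all genes had one. Their limma adjusted p values were 0.268, 0.295 and 0.347. The B cell precursor mean gave an unadjusted p under 0.05 for the same 3 genes, where 11.9% of all genes had one. The megakaryocyte mean gave none below 0 and Gins1 above it, at 0.23 ± 0.08, where 10.5% of all genes had one. Tyms, Gins2 and Mcm5 were at -0.30, -0.24 and -0.23 with the B cell precursor mean. With the megakaryocyte mean these 3 were at -0.12, -0.14 and -0.14. The differences of single members thus depended on which list entered the model.

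Other genes of the same machinery were counted from 4 lists with 142 of 145 genes tested, and 0 passed the adjusted threshold in limma, while 3 had an unadjusted p under 0.05, all below 0. Of all genes 7.16% had such a p in either direction and 3.17% below 0, and the shares were not compared by a test. Replication factors, 44 genes, had a median difference of -0.01, with Pold2, a subunit of polymerase delta, at -0.19 ± 0.09 (SE), Rfc5 at -0.12 and Mcm10 at -0.17. On the other side were Cdc7, the kinase that fires origins, at 0.15 ± 0.08, Wdhd1 at 0.09 and Fen1 at 0.12. Mitosis factors, 60 genes, had a median of -0.00623. Cenpm of the kinetochore was at -0.24 ± 0.09, Pttg1, the securin that holds separase in check, at -0.15 ± 0.06 and Cenpn at -0.16. Kif20b, Aspm and Espl1 were at 0.06, 0.11 and 0.09. Cenpm and Pttg1 were 2 of the 3 with an unadjusted p under 0.05.

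The third was Ccnd1, the D-type cyclin through which growth signals act on the cycle, in a list of 24 G1/S, E2F and Myb genes. Its mean was 8.61 ± 0.13 in wild type against 8.36 ± 0.04 (SD, n = 3 each). Its difference was -0.25 ± 0.08 (SE, limma adjusted p = 0.520). The groups did not overlap for Ccnd1, Cdk4, Lin37, Pttg1 and Pold2, with diabetic lower, and for Tob1 and Rbl2, with diabetic higher, 7 of the 142 genes where 12.4% of all genes were separate. Lin37 is named for this count after its values were seen. In the same list Wee1 and Cdk4 were at -0.12 and -0.11, and Tfdp2, Mybl1 and Cdk6 at 0.19, 0.08 and 0.05. Cell cycle inhibitors, 14 genes, had 10 above 0 and 4 below, where 47.6% of all genes were below 0. Their median was 0.03, where that of all genes was 0.00468, and the list was not tested as a whole. Cdkn1b, which encodes the Cdk inhibitor p27, was at 0.14 ± 0.07, Tob1 at 0.13 ± 0.07 and the pocket protein gene Rbl2 at 0.10 ± 0.06, and Rbl1, Ccng1 and Cdkn2a were at -0.03, -0.03 and -0.00396. The replication and mitosis factors followed the same arrays as the members: both had their highest mean on wild type replicate 3, at 10.03 and 10.29.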

How the data were processed

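RNA of 6 marrow samples, 3 per group by their titles, was measured on Affymetrix arrays. The authors deposited log2 signals per probe set. The submitters' processing notes name RMA and Affymetrix Expression Console, without a version or build. RMA equalises the arrays, so a change in the total RNA per cell cannot be seen. Of 35556 probe sets, 21789 had 1 symbol in the platform annotation, and 21698 of these matched RefSeq genes of GRCm38.p6. Genes with a mean of at least 7.52, the 40th percentile of those probe sets, were tested, 11940 in all. All 38 members passed, with both group means above that level. Array medians lay between 7.67 and 7.73. The number of arrays limits the precision.

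Differences are diabetic minus wild type, fitted under R 4.3.3 by limma 3.58.1 (lmFit, then eBayes), with Benjamini-Hochberg adjustment over all genes tested, and the fit was tested on simulated data. List shifts are differences of array means, with no test. The members and gene lists were chosen with earlier results of these data known. Per-array values are given for the 8 members with the smallest p, for the ends of each role and for hallmark genes; from the other cell cycle lists up to 3 genes per direction with the smallest p are named. Cdc6 was added for its spread after its values were seen. Alternatives were other level filters, normalizations, probe set rules, limma settings, a replicate block, a threshold of 0.10, leaving out each array and, added after seeing the data, marker covariates. Replicate numbers were not used to pair the arrays in the main fit. Deviations of same-numbered arrays correlated at 0.33, -0.04 and -0.05, which does not settle whether the numbers are a pairing.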

Additional observations from a re-analysis of the deposited data

How the results depend on the processing

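No member passed the adjusted threshold in limma in any of the 18 alternatives. The threshold of 0.10 was applied to the main fit only, and with array weights Cdk2 had a limma adjusted p of 0.0823. The count with an unadjusted p under 0.05 stayed 0 except with array weights (2, Cdk2 and Gins1, in a fit whose weights stopped short of convergence), with the erythroid or the B cell precursor mean as a covariate (3 each), with the megakaryocyte mean (1, Gins1), and when arrays were left out, where it ran from 0 to 3. Of all genes 27.3% had such a p with array weights and 10.4% without wild type replicate 3. With the erythroid, B cell precursor and megakaryocyte means the share was 12.0%, 11.9% and 10.5%. The members move together and spread more within the groups than most genes, so their counts were not compared with these shares. The shift of the members was -0.03 in the main fit and ran from -0.11 to 0.07 when arrays were left out. Its sign turned without wild type replicate 3 (0.07) or diabetic replicate 3 (0.02) and with array weights (0.00385). Single differences changed sign for 25 of 38 members without wild type replicate 3. They did so for 16 when diabetic replicate 3 was omitted, and none was called on either side. The number of all genes past the threshold, 49, was 1131 with array weights, 2 with the replicate block, 100 and 90 with the erythroid and megakaryocyte means, and between 3 and 68 over the fits that each omit an array; the cause was not tested. In the fit with the replicate block, which the numbers do not support as a pairing, 0 members had an unadjusted p under 0.05 and no call on a member changed. Not every array correlated best with its own number. The number of arrays limits the precision, which differed between members, with standard errors from 0.06 for Foxm1 to 0.19 for Cdc6.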
